A study of Mus musculus with 6 samples.

Results

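The MS4A genes encode small proteins that cross the membrane 4 times. The study compared activated T cells from mouse blood that did or did not carry CD11c, and 6 genes of this family, Ms4a4b, Ms4a4c, Ms4a6b, Ms4a6c, Ms4a6d and Ms4a7, are described here across its 6 arrays. Their members were all probe sets whose single gene symbol in the platform annotation is one of these names, which gave 12 of 45141 probe sets, with 2 for Ms4a4b, 1 for Ms4a4c, 2 for Ms4a6b, 2 for Ms4a6c, 3 for Ms4a6d and 2 for Ms4a7. A probe set is a group of short probes designed against a transcript, though the probes of some sets can match others. Its value here is a log2 signal after RMA, the authors' normalization and summary step, so that a step of 1 is a doubling. Probe sets of 1 gene share their source and are not replicates. Their levels were ranked to name the brighter set of a gene and set against a background level, but were not read as relative amounts of transcript.

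Blood came from female C57BL/6 mice, 6 to 8 weeks old, that had all received 3 mg of Depo-Provera, a progestin that synchronizes the cycle, 5 days before death by the labels (the study's methods give another interval). From each of 3 of these mice, labelled A, C and D, CD3+ CD62L- CD44high cells were sorted by their CD11c into the CD11c+ and CD11c- samples. Each sample held 300 cells, its RNA was amplified, and it was hybridised to 1 array, so that 3 CD11c+ and 3 CD11c- arrays were compared in pairs from the same mouse. The number of arrays limits the precision, and array medians of the log2 signal lay between 4.4 and 4.5. Itgax, which encodes CD11c, had log2 signals of 8.93, 9.06 and 8.93 in the CD11c+ samples of mice A, C and D and of 5.80, 3.88 and 4.12 in their CD11c- samples. The CD11c- sample of mouse A thus stood above the other 2 for this gene, and without that mouse no probe set of the array, and so none named below, passed the test. Background was set at a log2 signal of 5.70, which 95% of 30 genes typical of other tissues did not exceed in their mean.

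Members of the MS4A family sit in membranes beside receptors and tune their signals. Ms4a1 encodes CD20 of B cells and Ms4a2 the beta chain of the high-affinity IgE receptor of basophils and mast cells. Ms4a4b and Ms4a6b are known from T cells, where Ms4a4b associates with the costimulatory receptor GITR, while Ms4a6c, Ms4a6d and Ms4a7 are known from monocytes and macrophages and Ms4a4c from both lineages. On chromosome 19 they follow one another in the order Ms4a7, Ms4a4a, Ms4a4c, Ms4a4b, Ms4a6c, Ms4a6b, Ms4a4d, Ms4a6d and Ms4a2, with 1 predicted gene, Gm8369, between Ms4a6c and Ms4a6b, so that each gene of T cells lies close to a relative.

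The sequences before the start sites of these neighbours are shown because the pairs are so alike. RefSeq windows (GRCm38.p6) were found for 5 of the 6 genes, Ms4a6d being the other one. The 250 bases before the start are printed for Ms4a4b (chr19:11443308-11443557, plus strand), Ms4a4c (chr19:11407411-11407660, plus strand), Ms4a6b (chr19:11518309-11518558, plus strand) and Ms4a6c (chr19:11469118-11469367, plus strand). Capitals mark bases that are identical in the alignment of Ms4a4b with Ms4a4c and of Ms4a6b with Ms4a6c.
Ms4a4b: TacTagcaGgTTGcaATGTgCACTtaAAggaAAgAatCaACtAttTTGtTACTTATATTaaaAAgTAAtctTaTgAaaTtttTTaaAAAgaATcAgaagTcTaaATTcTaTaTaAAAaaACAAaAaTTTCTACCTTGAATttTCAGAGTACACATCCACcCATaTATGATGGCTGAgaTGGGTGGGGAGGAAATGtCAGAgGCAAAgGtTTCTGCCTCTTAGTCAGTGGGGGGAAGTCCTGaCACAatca
Ms4a4c: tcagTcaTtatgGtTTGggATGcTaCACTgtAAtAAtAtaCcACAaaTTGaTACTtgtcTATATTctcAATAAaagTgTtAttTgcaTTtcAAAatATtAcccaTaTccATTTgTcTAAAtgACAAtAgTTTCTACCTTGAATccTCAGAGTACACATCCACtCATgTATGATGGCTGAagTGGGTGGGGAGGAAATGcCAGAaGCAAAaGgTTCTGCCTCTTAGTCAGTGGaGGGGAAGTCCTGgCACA
Ms4a6b: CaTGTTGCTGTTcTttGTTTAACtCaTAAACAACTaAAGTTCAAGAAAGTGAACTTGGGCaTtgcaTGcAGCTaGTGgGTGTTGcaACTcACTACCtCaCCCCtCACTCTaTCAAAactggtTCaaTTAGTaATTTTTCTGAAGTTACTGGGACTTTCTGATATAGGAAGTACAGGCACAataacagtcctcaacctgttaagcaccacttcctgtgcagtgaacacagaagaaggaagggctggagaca
Ms4a6c: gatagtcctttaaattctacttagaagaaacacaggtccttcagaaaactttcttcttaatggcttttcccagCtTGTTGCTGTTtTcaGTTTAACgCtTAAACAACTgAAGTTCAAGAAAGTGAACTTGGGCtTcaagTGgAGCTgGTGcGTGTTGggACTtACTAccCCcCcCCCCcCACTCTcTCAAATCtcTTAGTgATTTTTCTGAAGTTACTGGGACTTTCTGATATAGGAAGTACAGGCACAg
Ms4a4b and Ms4a4c shared 178 bases over 252 alignment columns (70.6%). Ms4a6b and Ms4a6c shared 149 over 183 columns (81.4%), their annotated starts being offset against each other. GAGGAA, 1 form of the site bound by the myeloid and B cell factor PU.1, was searched on both strands, and shorter or other forms were not. It occurred once in Ms4a4b, at -64 from the start, and once in Ms4a4c, at -61, in both on the plus strand. This match is found in 23.3% of 32851 promoter windows of the same length. The windows of Ms4a6b, Ms4a6c and Ms4a7 lacked GAGGAA, though those printed for Ms4a6b and Ms4a6c hold the shorter GGAA. Ms4a7 had 2 windows, of which the first was searched. TGTGGT, the core of RUNX sites, was present in Ms4a4c alone among the 5 genes, at -211 on the minus strand, and in 14% of all windows. It did not overlap GAGGAA.

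Among the 12 probe sets, the set of Ms4a4c and 1 of the 2 of Ms4a6c rose in CD11c+ cells. The other set of Ms4a6c did not pass, nor did any set of Ms4a4b, Ms4a6b, Ms4a6d or Ms4a7. With a threshold of 0.05 on the adjusted p, 2 of 12 were higher (0.957% of all probe sets were) and 0 were lower (0.168% of all probe sets) in limma with the mouse as a block. At an unadjusted p under 0.05, 5 were higher (6.28% of all probe sets) and 1 lower (7.21%). Of the 8 members with a mean over the arrays above background, 2 were higher, against 2.16% of all such probe sets, and 0 lower, against 0.436%. The groups did not overlap for 7 members, with CD11c+ above for 5 (6.4% of all probe sets) and below for 2 (12.5%). The median log2 difference of the 12 was -0.01, beside -0.09 over all probe sets. No member was called without mouse A or without mouse C.

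**Figure D1:**
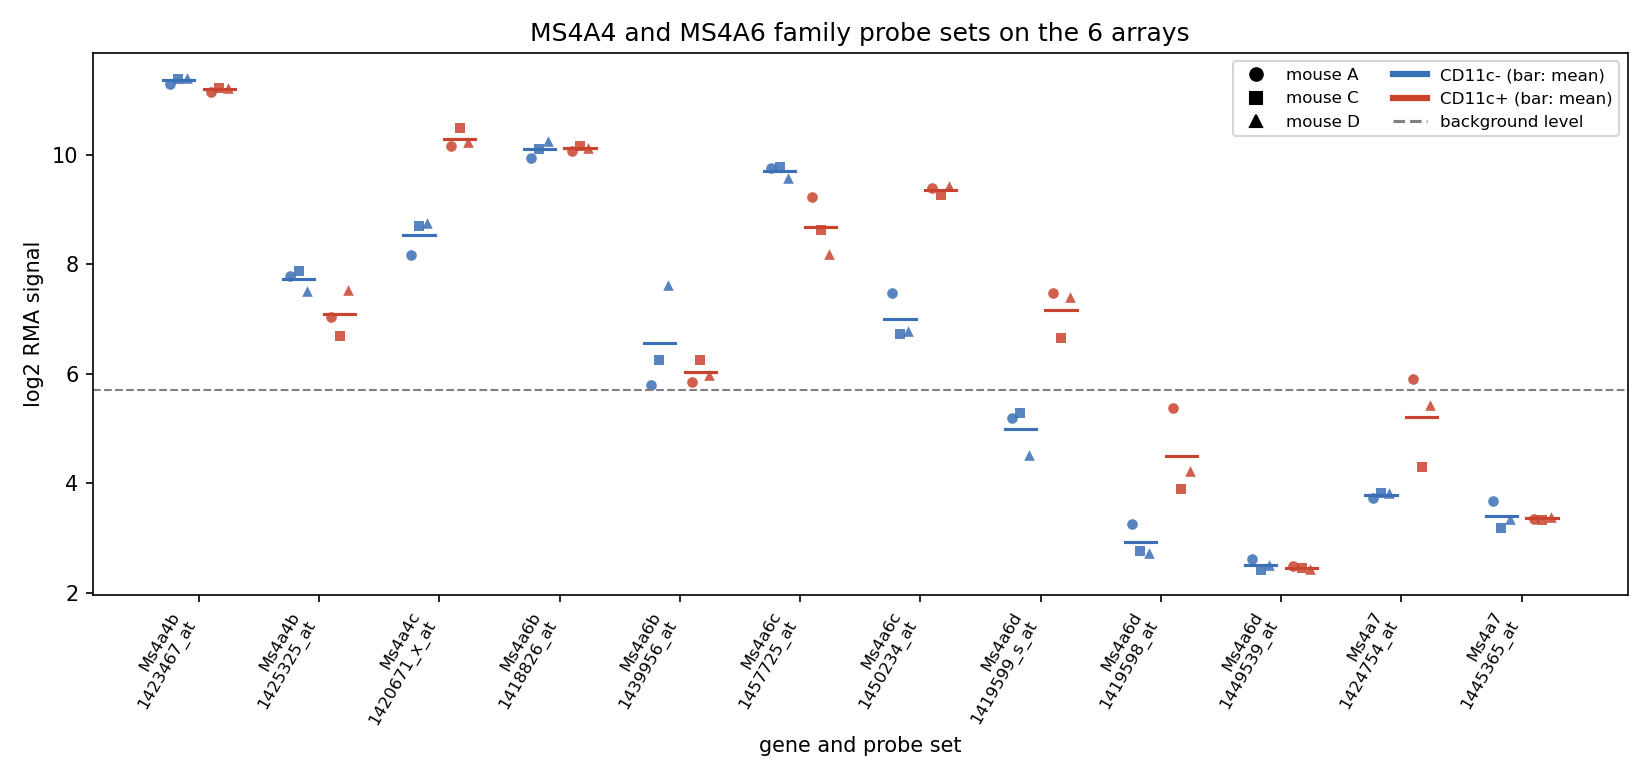
Log2 RMA signals (vertical axis) of the 12 probe sets (horizontal axis, by gene) by array. The shape of a point gives its mouse, blue is CD11c-, red is CD11c+, a short bar is a mean over 3 mice, and background (5.70) is dashed. Ms4a4c and 1 probe set of Ms4a6c have all red points above all blue ones, the other probe set of Ms4a6c has them below, and the first probe set of Ms4a4b lies near 11 in both.

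Ms4a4b was measured near the top of the scale in both fractions. Its probe set with the higher signal, 1423467_PM_at, had log2 signals of 11.15, 11.23 and 11.21 in CD11c+ and 11.30, 11.38 and 11.41 in CD11c- cells of mice A, C and D. Each CD11c+ value lay below every CD11c- value, by a small margin. The log2 difference was -0.17, with a 95% interval from -0.50 to 0.16 (adjusted p = 0.657). The other probe set, 1425325_PM_at, had 7.03, 6.69 and 7.53 in CD11c+ and 7.78, 7.88 and 7.51 in CD11c- cells. The groups overlapped through mouse D, and the log2 difference was -0.64 (interval -1.36 to 0.08, adjusted p = 0.432).

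Ms4a4c, the neighbour of Ms4a4b, had log2 signals of 10.16, 10.50 and 10.24 in CD11c+ and 8.18, 8.69 and 8.75 in CD11c- cells. All CD11c+ samples stood above all CD11c- samples, and the gene was above background in both fractions. Its means were 10.30 ± 0.18 and 8.54 ± 0.32 (SD, n = 3 mice). The log2 difference was 1.76 (standard error 0.16, adjusted p = 0.0296), a 3.38-fold rise seen in 3 of 3 mice. Leaving out mouse A gave 1.64 with an adjusted p of 0.18, and leaving out mouse C gave 1.73 with one of 0.131. Centring each array on its median gave 1.78 with an adjusted p of 0.0514, so the call was lost in all of these. Its single probe set carries the suffix x, which Affymetrix gives to sets with probes that can match other sequences, so a share from relatives cannot be told apart.

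Ms4a6b, also known from T cells, had overlapping levels in the fractions by both of its probe sets. With 1418826_PM_at the log2 signals were 10.08, 10.17 and 10.12 in CD11c+ and 9.94, 10.10 and 10.26 in CD11c- cells. The groups overlapped, and the log2 difference was 0.02, with an interval from -0.34 to 0.38 (adjusted p = 0.959). A difference of the size seen for Ms4a4c lies outside that interval. With arrays centred on the CD3 chains the difference was 0.76 and passed the test (adjusted p = 0.0324), a scaling that raised the median of all probe sets to 0.65. The dimmer 1439956_PM_at had 5.86, 6.25 and 5.98 in CD11c+ and 5.80, 6.25 and 7.62 in CD11c- cells. Its log2 difference of -0.53 (adjusted p = 0.658) rested on mouse D, without which it was 0.03.

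Ms4a6c gave opposite directions by its 2 probe sets. With 1450234_PM_at the log2 signals were 9.40, 9.26 and 9.42 in CD11c+ and 7.48, 6.73 and 6.79 in CD11c- cells. The groups were far apart, with means of 9.36 ± 0.09 and 7.001 ± 0.41 (SD, n = 3 mice). The log2 difference was 2.36 (standard error 0.19, adjusted p = 0.0245), a 5.13-fold rise in 3 of 3 mice, with the call lost when mouse A was left out (2.58, adjusted p = 0.108) and when mouse C was (2.28, adjusted p = 0.099).

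The other set, 1457725_PM_at, had 9.23, 8.62 and 8.19 in CD11c+ and 9.75, 9.79 and 9.57 in CD11c- cells. Here every CD11c+ sample lay below every CD11c- sample, the log2 difference was -1.02 (interval -1.59 to -0.45) and it did not pass the test (adjusted p = 0.149). This set had the higher mean over the arrays, so a rule that takes the brightest probe set would have given Ms4a6c this difference. The mean of both sets had a log2 difference of 0.67 (adjusted p = 0.0608). Which transcripts each set detects was not tested, since no probe sequences were used here.

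Ms4a6d, a macrophage gene whose protein binds the complement receptor VSIG4, was not above background in CD11c- cells. Its probe set 1419599_PM_s_at had log2 signals of 7.47, 6.66 and 7.39 in CD11c+ and 5.19, 5.28 and 4.52 in CD11c- cells. The groups did not overlap, the log2 difference was 2.18 (interval 1.33 to 3.03) and it did not pass the test (adjusted p = 0.0804). Because the CD11c- mean was not above background, the change is given as at least 2.78-fold higher in CD11c+ cells. It passed without the mouse block (adjusted p = 0.0228), with the mouse as a random block (adjusted p = 0.0179), with CD3 centring (adjusted p = 1.25e-05), as the mean of its 3 probe sets (log2 difference 1.23, adjusted p = 0.0357), when the dimmer part of the array was left out (adjusted p = 0.0425) and with a trended variance (adjusted p = 0.0451). It did not pass when mouse A (adjusted p = 0.306), mouse C (0.0715) or mouse D (0.11) was left out. Nor did it pass after cyclic loess (adjusted p = 0.109), median centring (0.103) or quantile normalization (0.116). The same held with a robust variance (adjusted p = 0.0959) and with only probe sets of a single gene (0.067).

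The suffix s of this set marks probes shared by transcripts of several genes. The second set, 1419598_PM_at, had 5.37, 3.89 and 4.22 in CD11c+ and 3.26, 2.77 and 2.73 in CD11c- cells, not above background in either mean and also without overlap (adjusted p = 0.0809). The third, 1449539_PM_at, stayed between 2.42 and 2.61 on all 6 arrays.

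Ms4a7, a gene of mature macrophages, was not above background in either mean. With 1424754_PM_at the log2 signals were 5.91, 4.29 and 5.43 in CD11c+ and 3.74, 3.81 and 3.82 in CD11c- cells. The CD11c+ samples were all higher, and the log2 difference was 1.42 (interval 0.47 to 2.38, adjusted p = 0.204). Only the CD11c+ sample of mouse A reached background. The other set, 1445365_PM_at, ran from 3.18 to 3.68 over the 6 arrays, with overlapping groups.

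**Figure D2:**
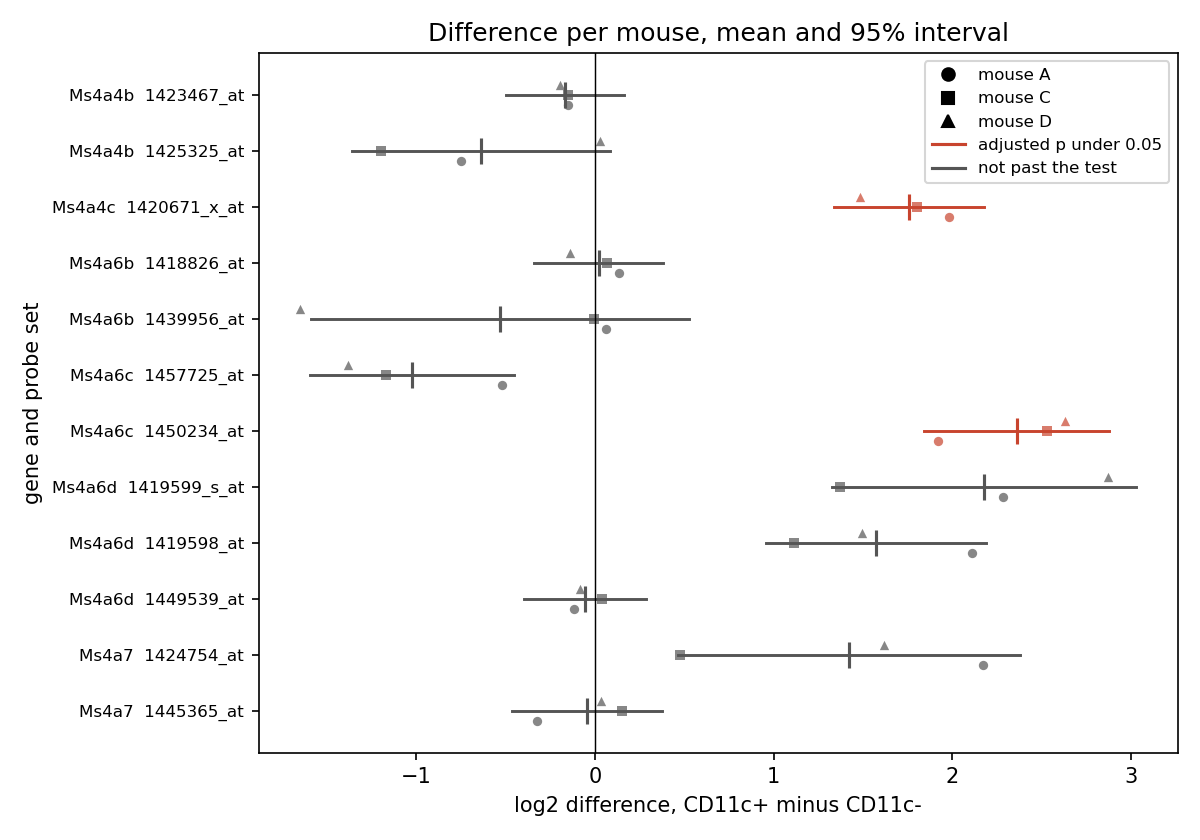
Log2 difference between the CD11c+ and CD11c- fraction (horizontal axis) of the 12 probe sets (vertical axis), with symbols for mice A, C and D, a tick for the mean and a bar for its 95% interval from limma. The 2 red bars, of Ms4a4c and of 1450234_PM_at of Ms4a6c, passed an adjusted p of 0.05, and the bar of the other Ms4a6c set lies wholly below 0.

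The difference of Ms4a4c lay above that of its neighbour Ms4a4b in every mouse, while for Ms4a6c against Ms4a6b the direction turned with the probe set of Ms4a6c. Subtracting the difference of Ms4a4b (1423467_PM_at) from that of Ms4a4c left 2.13, 1.96 and 1.68 log2 units in mice A, C and D, a mean of 1.92 ± 0.23 (SD, n = 3 mice). Subtracting the difference of Ms4a6b (1418826_PM_at) from that of Ms4a6c (1450234_PM_at) left 1.79, 2.46 and 2.77, a mean of 2.34 ± 0.50. The other genes stand here by their probe set with the highest mean. This Ms4a6c set, the dimmer one, which rose, was an exception to that rule. With the brighter Ms4a6c set, 1457725_PM_at, the same subtraction left -0.65, -1.23 and -1.24, a mean of -1.04 ± 0.34. That contrast follows the rule but was added after the values were seen. Nor should the set that rose be read as chosen before its values were known. For Ms4a6d (1419599_PM_s_at) against the same Ms4a6b set the mean was 2.15 ± 0.85, and between the 2 sets of Ms4a6c it was 3.38 ± 0.83. Within each of these 5 comparisons the 3 mice had 1 sign, and the two-sided exact permutation p was 0.25, before and after adjustment over the 5, the smallest that 3 mice can give. Centring of arrays cancels in these contrasts. It does not cancel in the difference of Ms4a4b itself, which the CD3 centring turned to 0.57 (adjusted p = 0.061).

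**Figure D3:**
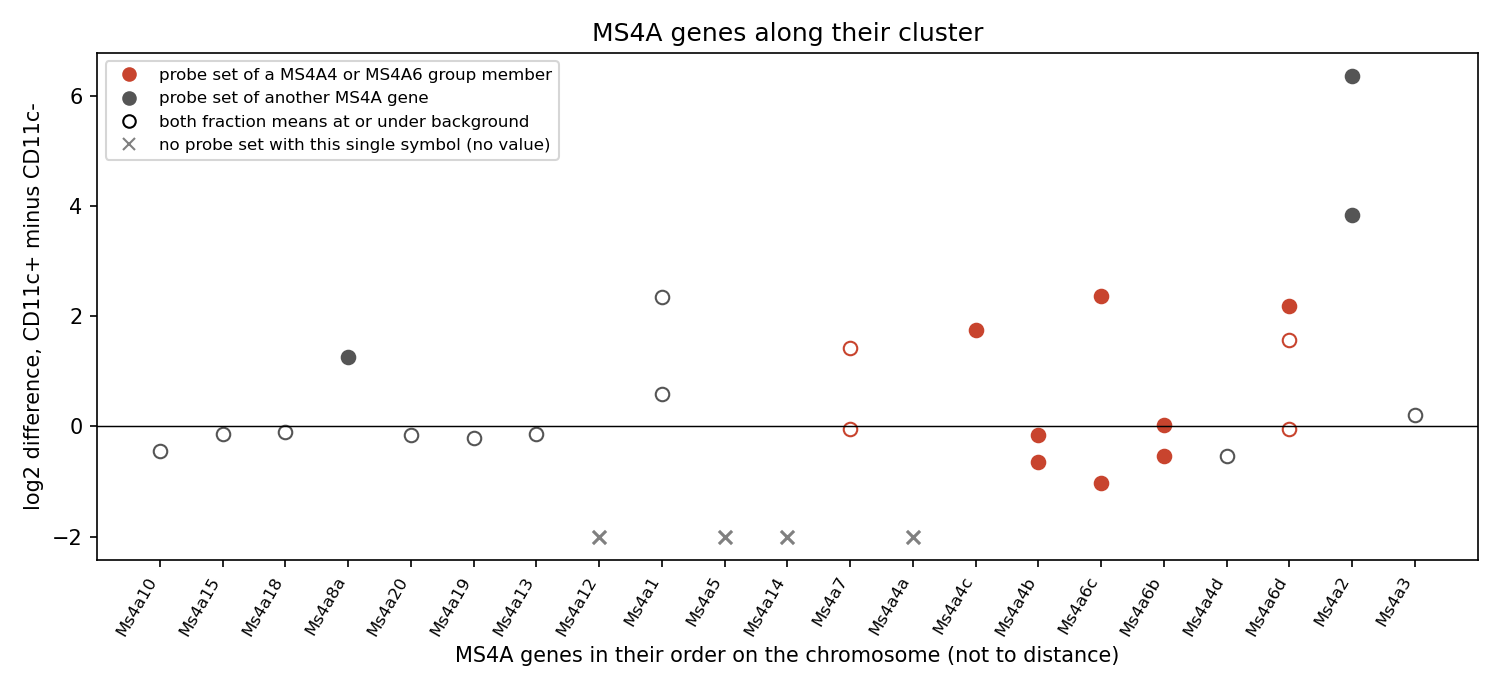
Log2 difference between the CD11c+ and CD11c- fraction (vertical axis) of each probe set of the MS4A genes, placed in their order on chromosome 19 and not by distance (horizontal axis), with members in red, other genes in grey, open circles where neither mean was above background and crosses at the bottom, which stand for no value, for genes with no probe set of that single symbol. Ms4a2 has the highest values, 6.35 and 3.84. Ms4a4b and Ms4a6b lie at or under 0.02, Ms4a4c lies at 1.76, and the 2 sets of Ms4a6c lie above and below them, at 2.36 and -1.02.

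Of 16 other genes of the family that were listed, 11 had a probe set, and by the brightest set 1 was higher, 0 were lower and 10 did not pass the test in limma (2 higher and 1 lower at an unadjusted p under 0.05). Over all 17097 genes 1.4% were higher and 0.222% lower by this measure, and 7.38% and 7.44% at the unadjusted threshold. The one that rose was Ms4a2, with log2 signals of 9.03, 9.37 and 9.79 in CD11c+ and 3.14, 2.91 and 3.08 in CD11c- cells by 1443264_PM_at. The samples did not overlap, and the gene was at least 13-fold higher (adjusted p = 0.00554). Its second set rose too (log2 difference 3.84, adjusted p = 0.0245). Ms4a1, the CD20 gene, had a log2 difference of 2.35 (adjusted p = 0.147), with neither mean above background.

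Ms4a8a, known from macrophages and epithelia, had a log2 difference of 1.26 (adjusted p = 0.557) and exceeded background in CD11c- cells of mouse D and CD11c+ cells of mouse C. Ms4a3, of myeloid progenitors, Ms4a4d, Ms4a10, Ms4a13, Ms4a15 and Ms4a18 had log2 differences from -0.54 to 0.20 and no mean above background. Tmem176a and Tmem176b, relatives encoded elsewhere and known from dendritic cells and type 17 lymphocytes, were high in both fractions. Tmem176a (1423909_PM_at) had means of 9.92 in CD11c+ and 10.05 in CD11c- cells and a log2 difference of -0.13 (interval -0.46 to 0.20). Tmem176b had 0.23 (interval -0.13 to 0.60), and neither passed the test.

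Of 8 listed genes of proteins that work with the family 7 were measured, and 4 were higher and 0 lower. Of all genes, 1.4% were higher and 0.222% lower by this measure. Tnfrsf18, which encodes GITR, had log2 signals of 8.73, 8.28 and 8.52 in CD11c+ and 9.38, 9.59 and 9.41 in CD11c- cells. All 3 CD11c+ samples were lower, with a log2 difference of -0.95 that did not pass the test (adjusted p = 0.124). Vsig4, the partner of Ms4a6d, was not above background, between 2.88 and 2.99 on all arrays. The other subunits of the IgE receptor rose as well. Fcer1a was at least 2.75-fold higher (adjusted p = 0.0396), and Fcer1g had a log2 difference of 3.19 (adjusted p = 0.00654). Syk, the kinase downstream of that receptor, was at least 11.0-fold higher (adjusted p = 0.0271), and Clec7a, which encodes the receptor Dectin-1, at least 3.43-fold higher (adjusted p = 0.0164). Orai1, a calcium channel subunit, had a log2 difference of 0.59 (adjusted p = 0.234).

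Markers of several other cell types were higher in the same samples as Ms4a4c, Ms4a2 and 1 of the 2 sets of Ms4a6c. Of 28 listed markers of monocytes and macrophages 23 were measured and 14 rose (1.4% of all genes did), with a median log2 difference of 2.67, beside -0.09 over all genes. Their mean level ran from 7.83 to 8.21 over the CD11c+ and from 5.10 to 5.17 over the CD11c- samples, and 21 were above background in the first and 7 in the second. In CD11c- cells Csf1r, Lyz2, Cd68, Itgam and Spi1 were among those not above it. The 7 above it there were Ctss, Ccr2, Nr4a1, Lst1, Cx3cr1, Cebpb and Ace. Of 13 measured markers of basophils and mast cells, Ms4a2 among them, 10 rose, with a median of 4.73 and mean levels from 7.28 to 8.02 against 3.74 to 3.98.

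Dendritic cell markers had 4 of 11 higher (median 1.10, mean levels 6.66 to 7.01 against 5.35 to 5.57), B cell markers 2 of 10 (median 0.74, 5.53 to 6.39 against 4.75 to 5.21) and NK cell markers 3 of 9 with 1 lower (median 0.96, 7.60 to 7.95 against 6.62 to 6.70). Neutrophil markers had 1 of 9 higher and a median of -0.02, and those of platelets and erythroid cells 1 of 8 and 0.02. The shares over all genes were 1.4% higher and 0.222% lower. The T cell list, 15 of 18 genes measured, had 0 higher and 2 lower, Cd5 and Cd6, with a median of -0.95 and mean levels from 8.28 to 8.71 in CD11c+ against 9.36 to 9.56 in CD11c- cells, and 13 of the 15 were above background in CD11c+ cells. The part of other cells in the differences of Ms4a4c, Ms4a6c and Ms4a6d was not tested. In samples of pooled cells, fewer cells of a type and less RNA per cell cannot be told apart.

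**Figure D4:**
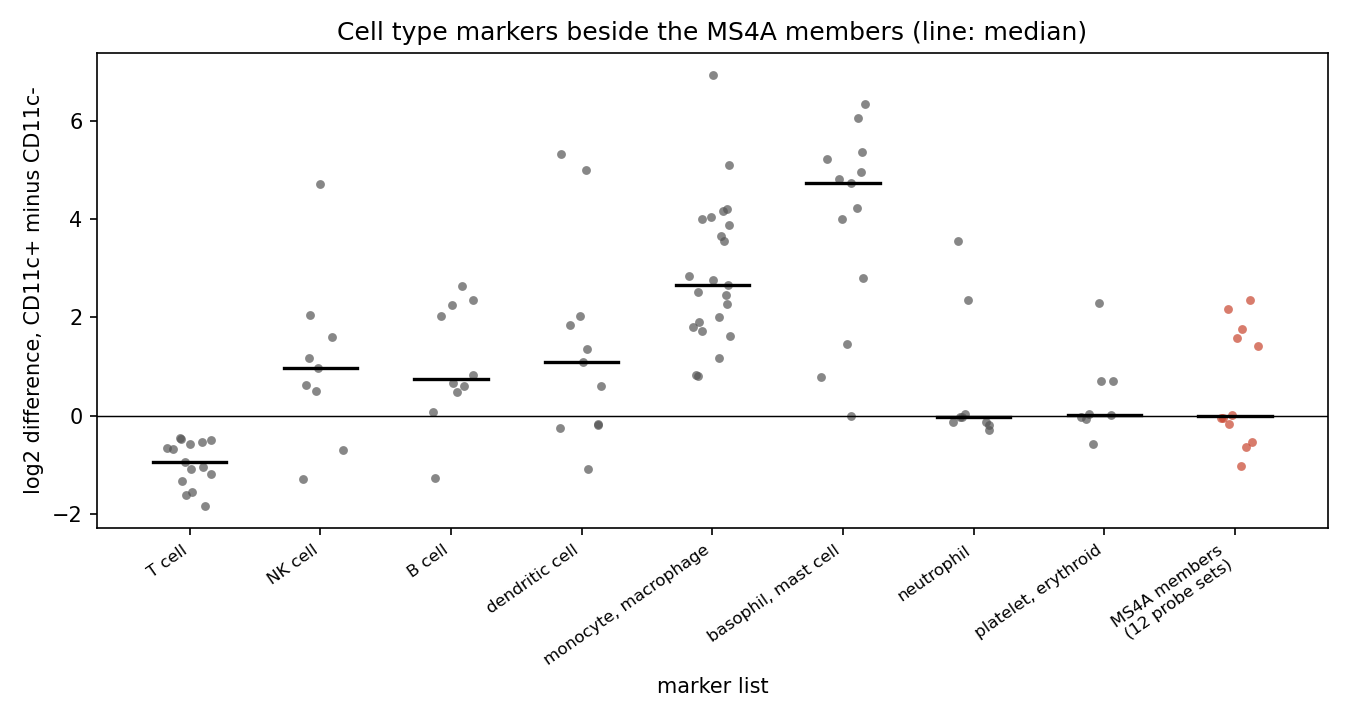
Log2 difference between the CD11c+ and CD11c- fraction (vertical axis) of the genes of 8 marker lists, each by its brightest probe set, and of the 12 MS4A probe sets in red (horizontal axis), with black lines at the medians. The basophil and mast cell list has a median of 4.73, that of monocytes and macrophages 2.67 and that of T cells -0.95, and the MS4A members spread from -1.02 to 2.36.

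Genes with the most similar pattern were sought by the root mean square difference of values centred on each gene's own mean over the 6 arrays, a description with no test. Nearest to Ms4a4b were Rps16 (0.025 log2 units) and Rpl13a (0.025), both of the ribosome, and C1ql1 (0.028), which had no mean above background. Nearest to Ms4a6b (1418826_PM_at) was Ywhae (0.036), a 14-3-3 protein, after 2 unnamed transcripts under background, A730056A06Rik and 8030442B05Rik. Nearest to Ms4a4c were Tcf4 (0.108), a transcription factor, Gzmm (0.134), a granzyme, and Zfp516 (0.135). For Ms4a6c the brighter set 1457725_PM_at had Rexo2 (0.091), Rinl (0.099) and Rgs10 (0.107) nearest.

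For the Ms4a6c set that rose, 1450234_PM_at, added after its values were seen, these were Plaur (0.133), the urokinase receptor, Apoc2 (0.183), an apolipoprotein, and Pirb (0.209), an inhibitory receptor of myeloid and B cells. Nearest to Ms4a6d were Fcer2a (0.218), Nt5c3 (0.229) and Ly6i (0.264), and nearest to Ms4a7 were Kcne3 (0.215), E230029C05Rik (0.249) and Hp (0.260), the gene of haptoglobin.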

How the data were processed

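The deposited values are log2 signals. The authors made them with RMA, which turns the probe intensities of a scan into 1 value per probe set, and the study's methods name GeneAtlas as the scanner software. There were 45141 probe sets, of which 104 were controls. The submitters' processing notes list RMA and limma, with no version of either. Since RMA gives arrays like distributions, a change in total RNA per cell cannot be seen, and amplifying the RNA of 300 cells can add noise to dim signals. All 6 sample columns were used. Groups came from the labelled cell type and pairs from the labelled mouse. As a check of the pairing, the deviations from the group mean correlated within mice A, C and D at 0.122, 0.0758 and 0.109, and between mice they were all under 0. Since each group was centred on its own mean, positive values within mice make those between mice negative on average. The values between mice are thus no separate check.

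From these values, limma 3.58.1 in R 4.3.3 was fitted to all probe sets, without a filter, and each mouse was a fixed block. Tests were two-sided, and p-values were adjusted over all probe sets (Benjamini-Hochberg, threshold 0.05). Intervals come from the same fit. The replicates are 3 mice, which leaves 2 residual degrees of freedom to a probe set. By the platform annotation 28898 probe sets have 1 gene, 551 have several and 15692 have none. Outside the members a gene is its probe set with the highest mean. A mean at or under background gives a lower bound, taken for each array of the dim group from the higher of its value and the background level. Promoter windows were aligned with Biopython 1.88 with free end gaps.

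The named genes were every member probe set, the listed family and partner genes, Itgax and the 3 most similar genes of each member. Single marker genes were named after their values were seen. The members and lists were chosen with earlier results of these data known. Alternatives were the block, leaving out each mouse, filters, normalization, the variance model, the threshold and the probe set of a gene. On simulated data for CD11c+ against CD11c- over 45141 probe sets, with 50 probe sets changed at each size, this fit found 0% where the log2 change was 1, 36% where it was 2, 84% where it was 4 and 90% where it was 6, and 1 of its 106 calls was false. Fewer probe sets were changed there than passed in the data, and noise between mice was added, so these shares need not hold for the data.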

Additional observations from a re-analysis of the deposited data

How the results depend on the processing

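The number of member probe sets called higher was 2 and became 0 without mouse A, where 5 had an unadjusted p under 0.05 in limma, 0 without mouse C (6 at an unadjusted p under 0.05) and 2 without mouse D. It was 1 with arrays centred on their median, 4 with a trended variance, 4 at an adjusted p of 0.1 and 8 with arrays centred on the CD3 chains, which moves the median of all probe sets from -0.09 to 0.65. The listed family genes called higher ran from 0 to 1 when a mouse was left out and were 5 with that centring. Over all probe sets, 432 were higher and 76 lower, from 0 to 348 and from 0 to 44 when a mouse was left out. These counts were 684 and 211 with no replicate block, which gave 3 members higher, and 812 and 316 with mouse as random block (3 members). They were 684 and 207 with a trended variance, 845 and 380 at an adjusted p of 0.1, and 22412 and 232 with the CD3 centring. Those lower were 140 when only the brighter part of the array was tested (means over the median), 41 after cyclic loess and 46 after quantile normalization.

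The probe sets whose direction turned had not passed the test in the reported fit. With the CD3 centring, Ms4a4b became 0.57 (1423467_PM_at) and 0.10 (1425325_PM_at), Ms4a6b (1439956_PM_at) 0.21, Ms4a6d (1449539_PM_at) 0.68 and Ms4a7 (1445365_PM_at) 0.69, and the last 2 passed the test there (adjusted p = 0.0422 and 0.0440 in limma). Ms4a6b (1418826_PM_at) ran from -0.0351 to 0.101 when a mouse was left out (-0.0351 without mouse A, -0.0015 without mouse C), and was -0.0136 after quantile normalization and -0.25 by the mean of its probe sets, and 1439956_PM_at ran from -0.826 to 0.0288, the latter without mouse D. Ms4a6c by the mean of its probe sets was 0.67. The third Ms4a6d set was 0.0276 after cyclic loess and 0.0155 after quantile normalization. The second Ms4a7 set ran from -0.145 to 0.0940, the latter without mouse A, and was 0.0384 after cyclic loess and 0.0238 after quantile normalization. The CD3 centring adds the same amount to the difference of every probe set. The cause of the other changes was not tested. Ms4a4c and the Ms4a6c set that rose kept their direction under every alternative. For Ms4a7 and the 2 dimmer Ms4a6d sets, signal at or under background limits what can be said.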

Other observations

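Ms4a19 and Ms4a20, family genes that were not on the list and were added after their values were seen, lay between 2.49 and 2.93 on all 6 arrays, under background, with log2 differences of -0.21 (adjusted p = 0.612) and -0.17 (adjusted p = 0.7).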
